A study of Mus musculus with 45 samples.

Results

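Expression of 8 genes of the skeletal muscle lineage was followed in cultured mouse forelimb buds exposed to bisphenol A, a plastics monomer that can bind estrogen receptors. Pax3, Pax7, Lbx1, Myf5, Myod1, Myog, Myf6 and Fgf6 were chosen by name as myogenic regulators and muscle progenitor genes and were matched by gene symbol, and all 8 were found among the 36300 genes that the deposited tables hold. Pax3, Pax7 and Myf5 were set as the 3 progenitor genes, and Myog and Myf6 as the 2 differentiation genes. The limb buds were taken from CD1 mouse embryos on gestation day 13, with both sexes in the same cultures, and were kept in organ culture with vehicle (dimethyl sulfoxide, DMSO), with 10 µM bisphenol A (BPA) or with 50 µM BPA. Culture lasted 3, 24 or 48 h, and each of the 9 groups held 5 libraries, 45 in all. Forelimbs of an embryo were pooled before culture, no allele or transgene is named, and an excised limb has no blood supply and receives no further muscle precursors from the trunk. Whether the 5 libraries of a group stem from different litters is not stated in the labels. The p-values therefore reflect the variation among the libraries at hand, part of which may be technical.

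Muscle of the limb is built by cells that leave the somites under the paired-box factor Pax3 and the homeobox factor Lbx1, settle in the limb bud as dorsal and ventral masses and then start the myogenic program. Pax7, the paralog of Pax3, marks the progenitors that are held back from differentiation and later supply fetal growth and adult satellite cells. Myf5 and Myod1 are the basic helix-loop-helix factors that commit a cell to the myoblast fate, and Myog (myogenin) drives its withdrawal from the cell cycle and its differentiation. Myf6 (MRF4) acts both early and in maturing fibres, and Fgf6 encodes a secreted fibroblast growth factor made mainly by skeletal muscle. Myogenic factors pair with E proteins and bind E-boxes, short DNA motifs of the form CANNTG.

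All 8 genes were annotated as protein coding, and their mm10 positions equalled those of the GENCODE M21 annotation. Myf5 (ENSMUSG00000000435) lies at chr10:107482908-107486134 and Myf6 (ENSMUSG00000035923) at chr10:107492853-107494737, both on the minus strand with 6718 bases between them. Pax3 lies at chr1:78101267-78197134 (minus strand), Pax7 at chr4:139737062-139833528 (minus), Lbx1 at chr19:45232684-45235812 (minus), Myod1 at chr7:46376474-46379099 (plus), Myog at chr1:134289989-134292548 (plus) and Fgf6 at chr6:127015586-127028187 (plus). No other annotated gene overlapped any of the 8. Promoter entries of RefSeq (build GRCm38.p6, 250 bases before to 50 bases after the start) were matched for 4 of the 8 members, Pax7, Myf5, Myog and Fgf6. The Pax7 window lay inside the deposited gene and was not printed. The upstream stretches of Myf5 and Fgf6, which fell with 50 µM BPA at 48 h, and of Myog are shown side by side, 5′ to 3′ on the gene's strand. The change of Myog passed the test only with the libraries paired by replicate number. Capitals mark matches, on either strand, to the E-box CANNTG or to TCAGGTT.
Myf5 (chr10:107486135-107486384, minus strand): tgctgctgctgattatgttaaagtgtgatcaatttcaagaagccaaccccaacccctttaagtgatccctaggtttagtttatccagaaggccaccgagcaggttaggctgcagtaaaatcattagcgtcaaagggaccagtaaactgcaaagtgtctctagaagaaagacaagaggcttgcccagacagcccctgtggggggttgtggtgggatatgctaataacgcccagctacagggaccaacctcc
Fgf6 (chr6:127015292-127015541, plus strand): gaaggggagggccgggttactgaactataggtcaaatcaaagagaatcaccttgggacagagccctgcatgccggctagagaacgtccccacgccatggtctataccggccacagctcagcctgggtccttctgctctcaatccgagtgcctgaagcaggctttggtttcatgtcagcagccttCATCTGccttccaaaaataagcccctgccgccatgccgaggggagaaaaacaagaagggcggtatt
Myog (chr1:134289754-134289988, plus strand): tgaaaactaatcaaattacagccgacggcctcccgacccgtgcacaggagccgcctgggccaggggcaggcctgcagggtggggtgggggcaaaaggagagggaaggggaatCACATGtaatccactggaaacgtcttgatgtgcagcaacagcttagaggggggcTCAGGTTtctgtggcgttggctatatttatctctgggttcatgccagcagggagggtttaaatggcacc
In the stretches shown, Myog held a CANNTG whose first letter lies 138 bases before the RefSeq start and a TCAGGTT 84 bases before it. Fgf6 held a CANNTG 66 bases before its start. Over all 300 bases of each entry, Myog and Fgf6 held 2 CANNTG each, and Myf5 held neither motif. CANNTG is its own reverse complement, and CAGCTG, 1 of its forms, was in none of the 4 windows. Of all 32851 promoter entries of the same length, 72.3% held a CANNTG, 16.3% a CAGCTG and 4.07% a TCAGGTT. These matches describe the letters and say nothing of binding.

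Gene counts per library, in M (mega), were 17.54 to 27.12, with averages per group of 19.56 to 22.94. Muscle RNA was present in every library: of the 30 contractile genes listed, 1 or 2 had a mean under 0.1 CPM (counts scaled to the library total) in a group, and their summed level rose in vehicle from 2210 ± 86.5 CPM (SD, n = 5) at 3 h to 8148 ± 1460.2 CPM at 48 h. The libraries differed in epidermal RNA: the summed level of 13 epidermal markers ranged from 62.8 to 1122 CPM within the vehicle group of 48 h and from 100.7 to 1488 CPM at 24 h. In whole limb buds, fewer cells of a type and less RNA per cell cannot be told apart.

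Per unit of gene length, Myog and Myod1 stood far above the other 6 genes in every group. In vehicle libraries of 48 h the mean deposited FPKM (fragments per kilobase of gene, scaled to depth) was 130.5 for Myog, 59.8 for Myod1, 5.56 for Myf5, 2.81 for Lbx1, 2.59 for Pax7, 1.63 for Fgf6, 1.26 for Myf6 and 0.0878 for Pax3. The libraries of Myog and Myod1 did not overlap in level, nor did those of Myod1 and Myf5, of Myf5 and Lbx1, and of Myf6 and Pax3, whereas Lbx1, Pax7, Fgf6 and Myf6 each overlapped with their neighbour in this order. The order of Myog above Myod1 above the rest, with no overlap between these 3 levels, held in all 9 groups. Pax3, which marks the migrating precursors, was the lowest or next to lowest, with 0 to 43 counts per library and no count in 2 of the 45 libraries.

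In vehicle most of these genes rose within the first day of culture, and Pax3 fell. Between 3 and 24 h in vehicle, 6 of the 8 genes rose and 1 fell, in a comparison in which 30.0% of 17081 genes were called (edgeR, adjusted p under 0.05). Myog had 106, 109.9, 94.5, 89.3 and 110.1 CPM in the 5 vehicle libraries of 3 h and 158, 179, 197, 205 and 216 CPM in those of 24 h. The groups did not overlap, and Myog, the switch to differentiation, rose by 0.91 ± 0.09 (adjusted p = 1.85e-06) on the log2 scale (± SE). Fgf6 had 2.12, 1.4, 1.9, 1.19 and 1.36 CPM at 3 h and 4.91, 3.84, 8.15, 6.08 and 8.2 CPM at 24 h. Every 24 h library of Fgf6 lay above every 3 h library, and the rise was 1.97 ± 0.25 (adjusted p = 2.97e-05), or 3.92-fold. The other rises were 1.57 ± 0.42 (adjusted p = 0.0101) for Myf6, 0.87 ± 0.18 (adjusted p = 0.00172) for Myf5, 0.50 ± 0.13 (adjusted p = 0.00795) for Myod1 and 0.50 ± 0.17 (adjusted p = 0.0339) for Lbx1. Pax3 fell by 1.13 ± 0.37 (adjusted p = 0.0302), from 1.27 ± 0.442 to 0.571 ± 0.211 CPM (mean ± SD, n = 5). Pax7 did not pass the test at 0.36 ± 0.15 (adjusted p = 0.0862). The calls of Lbx1 and Pax3 were marginal. Leaving out 1 library at a time ended the call in 7 of 10 fits for Lbx1, with adjusted p up to 0.0966. The call of Pax3 was lost in 4 of 10 fits (vehicle replicates 4 and 5 of 3 h and 2 and 3 of 24 h), with adjusted p up to 0.0936. The call of Lbx1 held without replicate 2 of 3 h and without replicates 1 and 4 of 24 h, and Pax7 was called without replicate 1 of the vehicle group of 24 h (adjusted p = 0.0091).

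In the second day of culture no change of the 8 genes in vehicle passed the test. Between 24 and 48 h, 0 of the 8 were called by edgeR, against 8.45% of 16940 genes (5.44% higher and 3.02% lower), and 1 of them, Pax7, had an unadjusted p under 0.05 (-0.39 ± 0.17, adjusted p = 0.184) and was called without replicate 1 of the vehicle group of 24 h (adjusted p = 0.0359). DESeq2, an alternative, also called 0. Over the whole span from 3 to 48 h, in which 46.7% of 16905 genes were called (23.9% higher and 22.9% lower), 5 of the 8 rose and Pax3 fell. Fgf6 rose 4.79-fold, Myf6 4.25-fold, Myf5 2.09-fold, Myog 1.93-fold and Myod1 1.33-fold, with adjusted p from 1.90e-06 (Myog) to 0.00466 (Myod1). Pax7, the marker of progenitors held in reserve, stood at 15.5 ± 1.52 CPM at 3 h and 15.2 ± 2.36 CPM at 48 h, a log2 difference of -0.02 ± 0.12 (adjusted p = 0.899). Pax3 stood at 0.545 ± 0.138 CPM at 48 h, a log2 difference of -1.20 ± 0.35 (adjusted p = 0.00948) from 3 h. In the fit of all 45 libraries the Pax3 calls were lost, both between 3 and 48 h (adjusted p = 0.0549) and between 3 and 24 h (adjusted p = 0.0888).

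**Figure D1:**
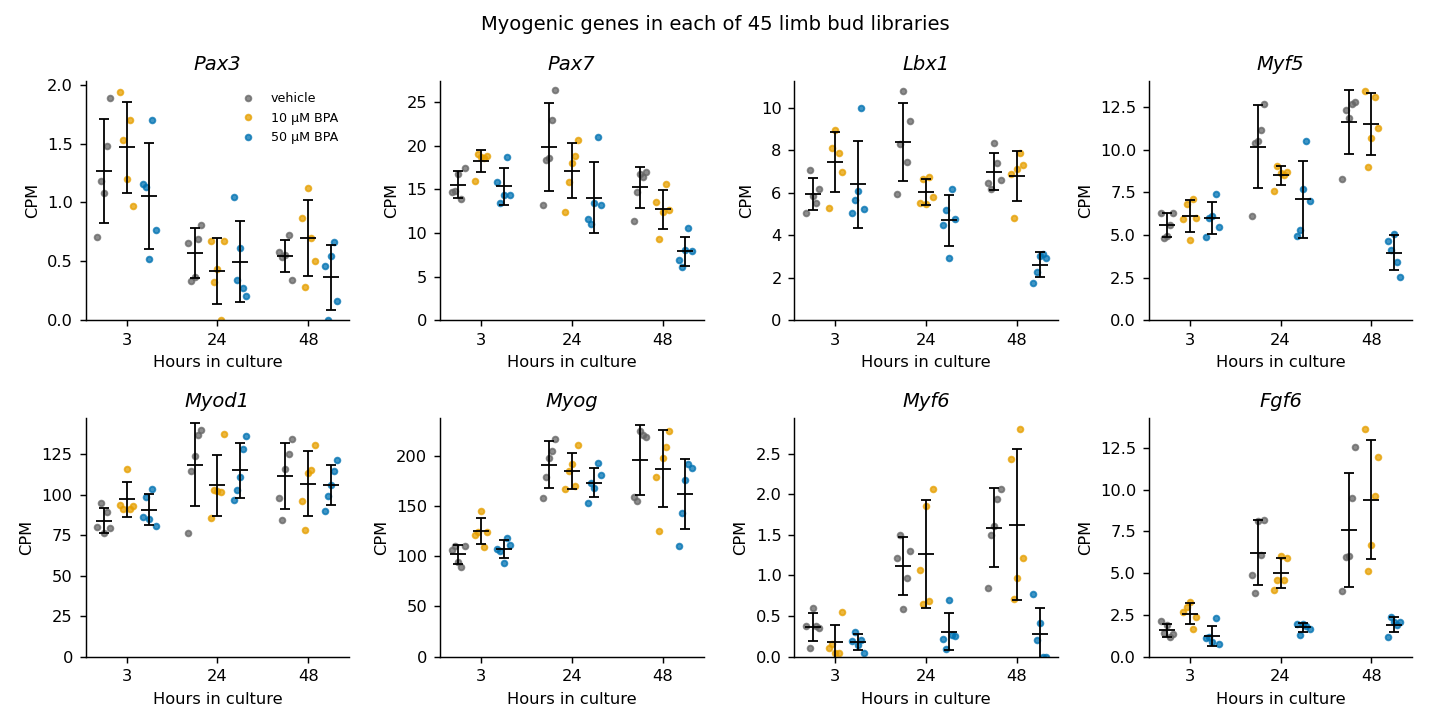
CPM of each gene in the 45 libraries by hours in culture; points are libraries, bars mean ± SD of 5, and each panel has its own axis starting at 0. The 50 µM libraries of 48 h lie below every vehicle library of 48 h for Pax7, Lbx1, Myf5, Myf6 and Fgf6, and overlap with them for Pax3, Myod1 and Myog.

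After 48 h with 50 µM BPA, genes from both ends of the lineage were lower. Of the 2 most abundant regulators, Myod1 was not called, and Myog was called only with the libraries paired by replicate number. Of the 8 genes, all of them tested, 5 fell and 0 rose (Pax7, Lbx1, Myf5, Myf6 and Fgf6), in a comparison in which 9.18% of 16732 genes were called and 5.30% were called lower and 3.88% higher. The median log2 fold change was -1.19 over the 8 genes and -0.0049 over all genes tested. The 5 that fell were also the 5 whose vehicle and 50 µM libraries did not overlap, which restates the calls and is no further support. The share of all genes without overlap was not counted. With the replicate number as a block, which pairs the libraries in this comparison, Myog was called as well, and the calls over all genes rose from 1536 to 2598.

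Among the genes of progenitors and migrating precursors, Lbx1 and Pax7 fell and Pax3 could not be resolved. Lbx1 had 6.47, 6.18, 8.35, 7.42 and 6.59 CPM in the 5 vehicle libraries and 1.74, 2.28, 3.04, 3.1 and 2.91 CPM with 50 µM BPA. Every BPA library was below every vehicle library, and the level fell 2.69-fold (-1.43 ± 0.18, adjusted p = 0.000166 on the log2 scale). Pax7 had 11.3, 14.7, 16.8, 16.4 and 17 CPM in vehicle and 6.88, 6.08, 8.03, 10.5 and 7.89 CPM with 50 µM. The highest BPA library was just under the lowest vehicle library, and the change was -0.96 ± 0.15 (adjusted p = 0.000941), or 1.94-fold lower. Pax3 had 0.579, 0.533, 0.553, 0.724 and 0.337 CPM in vehicle and 0.462, 0, 0.541, 0.66 and 0.159 CPM with 50 µM, groups that overlapped at counts of 0 to 16 per library. Its difference of -0.57 ± 0.56 (adjusted p = 0.609) was not detectable at this depth; the library without a Pax3 count allows up to 0.145 CPM by counting error alone (3 counts).

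Of the pair of commitment factors, Myf5 fell and Myod1 was not called. Myf5 had 8.31, 12.4, 11.9, 12.7 and 12.8 CPM in vehicle and 4.67, 4.1, 5.07, 3.4 and 2.54 CPM with 50 µM BPA, the highest of the latter being below the lowest of the former. The fall was 2.94-fold (-1.56 ± 0.18, adjusted p = 8.47e-05), the smallest adjusted p among the 8 genes. Myod1 had 97.9, 84.2, 116, 125 and 134 CPM in vehicle and 90.2, 99, 106, 114 and 121 CPM with 50 µM. The libraries of Myod1 ranged over the same levels in both groups, and the log2 difference was -0.08 ± 0.11 (adjusted p = 0.727). The SE of 0.11 sets the resolution for Myod1, and whether its change differed from that of Myf5 was not tested.

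Of the differentiation genes, Myf6 fell, and Myog was called only with the replicate block. Myf6, expressed in maturing fibres, was counted 16, 28, 29, 43 and 43 times in the vehicle libraries and 15, 4, 10, 0 and 0 times with 50 µM BPA, which corresponds to 0.842, 1.49, 1.6, 1.94 and 2.07 CPM against 0.77, 0.203, 0.416, 0 and 0 CPM. It had the lowest counts of the called genes, and the estimate of -2.48 ± 0.62 (adjusted p = 0.0200) has the largest SE of the 8; a count of 0 allows up to 0.149 and 0.153 CPM in the 2 libraries concerned. Myog had 159, 155, 224, 221 and 218 CPM in vehicle and 110.1, 143, 176, 192 and 188 CPM with 50 µM. The groups overlapped between 155 and 192 CPM, 2 of the BPA libraries lay below every vehicle library, and the BPA library was the lower in all 5 same-numbered pairs. The log2 difference was -0.28 ± 0.14 (adjusted p = 0.257); with the replicate block it was -0.29 ± 0.05 with an adjusted p of 0.00146. Fgf6, the muscle growth factor, had 3.95, 5.97, 6.03, 9.5 and 12.6 CPM in vehicle and 1.18, 2.38, 2.08, 1.93 and 2.06 CPM with 50 µM. The BPA libraries of Fgf6 lay in a narrow band below all vehicle libraries, 3.96-fold lower (-1.99 ± 0.29, adjusted p = 0.000451). All 5 calls held in each of the 10 fits that left out 1 library, with adjusted p up to 0.0478 (Myf6).

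At 24 h with 50 µM BPA, 3 of the 8 genes, all tested, were lower (Fgf6, Lbx1 and Myf6) against 3.47% of 16841 genes called and 2.10% called lower. Fgf6 had 4.91, 3.84, 8.15, 6.08 and 8.2 CPM in vehicle and 1.99, 1.33, 1.97, 1.85 and 1.64 CPM with 50 µM. No library of one group reached the other, and Fgf6 was 3.55-fold lower (-1.83 ± 0.24, adjusted p = 0.000708). Lbx1 had 5.97, 8.29, 10.8, 7.45 and 9.37 CPM in vehicle and 4.47, 5.2, 2.91, 6.16 and 4.78 CPM with 50 µM, groups that overlapped by 1 BPA library, with a change of -0.84 ± 0.21 (adjusted p = 0.0369). Myf6 had 1.21, 1.5, 0.588, 0.972 and 1.31 CPM in vehicle and 0.221, 0.0982, 0.704, 0.273 and 0.257 CPM with 50 µM, again with 1 BPA library among the vehicle values, and changed by -1.81 ± 0.47 (adjusted p = 0.0479). The calls of Lbx1 and Myf6 at 24 h rest on all libraries: leaving out 1 library ended them in 8 and 9 of 10 fits, with adjusted p up to 0.107 and 0.126 (Lbx1 kept it without vehicle replicate 1 or 50 µM replicate 4, and Myf6 without 50 µM replicate 3), while that of Fgf6 held in all 10 (adjusted p up to 0.00393). The call of Myf6 was also lost without the filter (adjusted p = 0.0675) and in the fit of all 45 libraries (adjusted p = 0.0731). The values of Pax7 (-0.50 ± 0.19, adjusted p = 0.203) and Myf5 (-0.53 ± 0.22, adjusted p = 0.252) did not pass the test without a replicate block. Those of Pax3, Myod1 and Myog were -0.21 ± 0.48, -0.04 ± 0.14 and -0.14 ± 0.08. With the replicate number as a block, edgeR called Pax7 (adjusted p = 0.0231) and Myf5 (0.0441) and did not call Myf6 (0.0539). At 24 h 4 of the 5 same-numbered pairs correlated with r over 0.1, short of the rule for pairing. The mean r was 0.124 for libraries of the same number and -0.031 for those of other numbers. The test without the block was the main one at every time, so whether Pax7 and Myf5 were called at 24 h depended on the test.

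At 3 h with 50 µM BPA no difference passed the test. These 5 libraries are titled 3 h but carry a length label of 24 hours, and the titles were followed. Their summed level of 20 mitotic genes was 2536 to 2740 CPM. It was 2515 to 2957 CPM in the vehicle libraries of 3 h and 959 to 1057 CPM with 50 µM at 24 h. Of the 7 genes tested (Myf6 was under the filter on low counts), 0 were called by edgeR and 0 had an unadjusted p under 0.05, DESeq2 called 0, and 1.41% of 16988 genes were called. The log2 differences lay between -0.35 ± 0.33 (Fgf6) and 0.10 ± 0.08 (Myod1). The libraries of each gene overlapped between the groups.

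**Figure D2:**
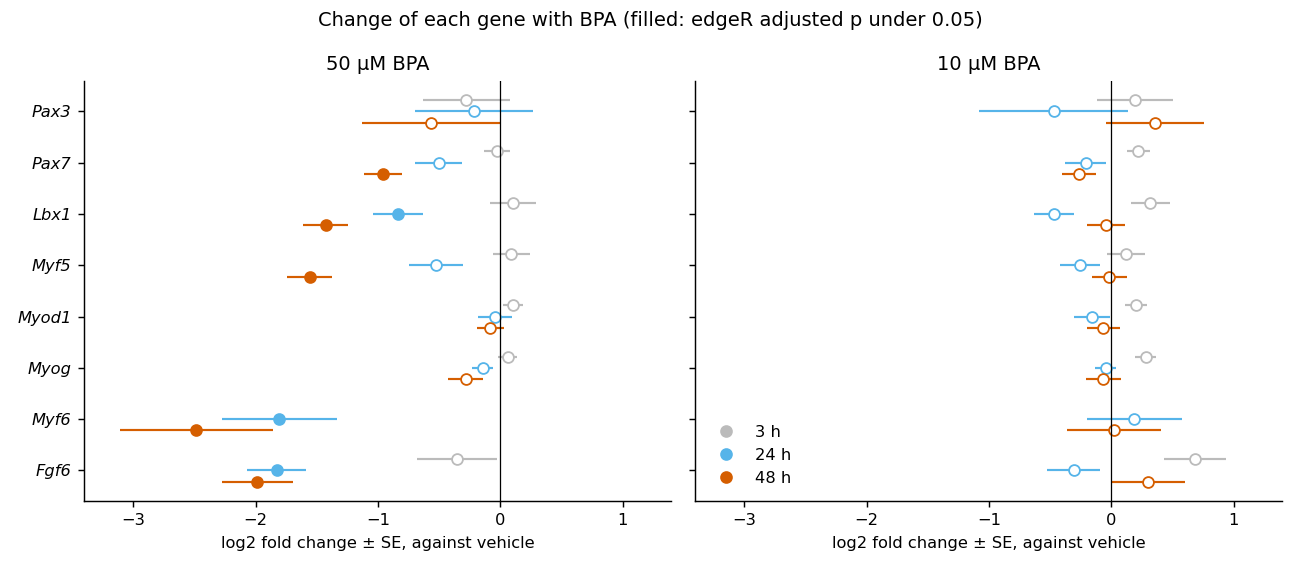
Log2 fold change against vehicle ± SE (edgeR, 5 against 5 libraries) of each gene after 3, 24 and 48 h with 50 µM (left) or 10 µM (right) BPA; filled points have an adjusted p under 0.05, and Myf6 was not tested at 3 h. Filled points appear with 50 µM only, 3 at 24 h and 5 at 48 h, and Myf6 at 48 h is farthest left at -2.48.

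The lower dose gave no called change in any of the 8 genes. With 10 µM BPA, 0 members were called by edgeR and by DESeq2 at 3, 24 and 48 h, against 0%, 0% and 0.00591% of all genes called by edgeR; Myf6 was again not tested at 3 h. Over all genes, 974, 786 and 980 had an unadjusted p under 0.05, and DESeq2 called 17, 17 and 53. Unadjusted p under 0.05 occurred in 4 of the 7 genes tested at 3 h, all of them higher with 10 µM: Myog (0.28 ± 0.08, adjusted p = 0.700), Fgf6 (0.69 ± 0.25, adjusted p = 0.700), Pax7 (0.22 ± 0.10, adjusted p = 0.700) and Myod1 (0.20 ± 0.09, adjusted p = 0.700). It occurred in 1 gene at 24 h, Lbx1, at -0.47 ± 0.16 (adjusted p = 0.975), and in 0 at 48 h. At 48 h the values of Myf5 were 13.4, 8.98, 10.7, 13.1 and 11.3 CPM with 10 µM, in the range of the vehicle libraries, and the log2 difference from vehicle was -0.02 ± 0.14.

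The doses were compared with each other in the fit of all 45 libraries. At 48 h, 5 of the 8 genes were lower with 50 than with 10 µM, against 3.14% of 19247 genes called and 2.15% called lower and 0.998% higher. The differences were -2.51 ± 0.60 (adjusted p = 0.00917) for Myf6, -2.28 ± 0.28 (adjusted p = 4.58e-07) for Fgf6, -1.53 ± 0.18 (adjusted p = 2.28e-07) for Myf5, -1.38 ± 0.19 (adjusted p = 3.12e-06) for Lbx1 and -0.69 ± 0.17 (adjusted p = 0.00999) for Pax7. The call of Myf6 was lost when only the 10 libraries of the 2 groups entered the fit (adjusted p = 0.0581), and that of Pax7 without 10 µM replicate 4 (adjusted p = 0.0549). Myod1 differed by -0.01 ± 0.13 and Myog by -0.21 ± 0.12. At 24 h, 1 of the 8 was called (0.800% of genes called, 0.535% lower), Fgf6 at -1.52 ± 0.29 (adjusted p = 0.00288). At 3 h edgeR called 0 of the 8 (0.623% of genes); Fgf6 had the only unadjusted p under 0.05 (-1.03 ± 0.30, adjusted p = 0.115), and DESeq2 called it (adjusted p = 0.0399), as did edgeR without replicate 4 of the 50 µM group (adjusted p = 0.0153). These comparisons and those with vehicle share the 50 µM libraries.

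Whether the effect of 50 µM differed between times was tested directly. Between 3 and 48 h the effect became more negative for 4 of the 8 genes, Myf5 (-1.65 ± 0.26, adjusted p = 6.36e-05), Lbx1 (-1.53 ± 0.27, adjusted p = 0.000251), Fgf6 (-1.64 ± 0.42, adjusted p = 0.0210) and Pax7 (-0.93 ± 0.23, adjusted p = 0.0168), against 1.95% of 19247 genes called and 1.60% called lower. Leaving out 50 µM replicate 4 of 3 h ended the calls of Pax7 (adjusted p = 0.0515) and Fgf6 (0.121), and that of Fgf6 was also lost without vehicle replicate 4 of 3 h, 50 µM replicate 1 of 48 h or vehicle replicate 5 of 48 h, with adjusted p over 0.05. Between 3 and 24 h edgeR called 0 of the 8 (0.634% of genes, 0.530% lower), with unadjusted p under 0.05 in 4, and DESeq2 called Lbx1 and Fgf6 (adjusted p = 0.0322 and 0.0363); edgeR called Lbx1 without 50 µM replicate 4 or vehicle replicate 1 of 24 h (lowest adjusted p = 0.0367). Between 24 and 48 h edgeR called 0 of the 8 and 0% of genes, and so did DESeq2 for the 8, with unadjusted p under 0.05 for Myf5 and Lbx1. The effect on Myod1 differed by -0.19 ± 0.19 between 3 and 48 h and that on Myog by -0.34 ± 0.18.

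Within the 50 µM cultures Myog rose on the first day, the rise of Myod1 was borderline, and Lbx1, Myf5 and Pax7 fell on the second day. From 3 to 24 h, Myog rose by 0.70 ± 0.13 (adjusted p = 2.30e-05) and Myod1 by 0.34 ± 0.13 (adjusted p = 0.0492), 2 of the 8 genes against 29.9% of genes called; the call of Myod1 was lost with upper-quartile factors (adjusted p = 0.0504) and without the filter (adjusted p = 0.0735), and in 7 of 10 fits without 1 library (up to 0.162). Single omissions also brought in Lbx1 (3 of 10 fits), Pax3 (1) and Fgf6 (1). From 24 to 48 h, 3 of the 8 fell, Lbx1 (-0.84 ± 0.19, adjusted p = 0.00218), Myf5 (-0.83 ± 0.18, adjusted p = 0.00128) and Pax7 (-0.83 ± 0.17, adjusted p = 0.000394), against 10.3% of genes called, with 3.90% called lower and 6.44% higher. In the same interval the vehicle values were -0.26 ± 0.16, 0.19 ± 0.18 and -0.39 ± 0.17. The direct test of whether the effect of 50 µM differed between 24 and 48 h called 0 of the 8 genes. Fgf6, which rose 3.92-fold in vehicle in the first day, went from 1.25 ± 0.612 to 1.76 ± 0.277 CPM with 50 µM, a log2 difference of 0.48 ± 0.31 (adjusted p = 0.256). For Fgf6 the effect of 50 µM at 24 against 3 h was not called by edgeR and was called by DESeq2 (adjusted p = 0.0363).

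Whether progenitor genes and differentiation genes moved apart depended on the measure used. As a plain ratio of counts, Myog to Myf5 was 16.99 ± 2.65 (SD, n = 5) in vehicle libraries of 48 h, with a range of 12.5 to 19.1, and 44.7 ± 20.2 with 50 µM BPA, with a range of 23.6 to 73.9. The groups did not overlap, and the ratio was higher in all 5 BPA libraries than in any vehicle library. Myog to Pax7 was 12.9 ± 1.37 in vehicle and 20.7 ± 3.43 with 50 µM, also without overlap, and 14.8 ± 2.03 with 10 µM. The mean log2 CPM of Myog and Myf6 minus that of Pax3, Pax7 and Myf5 was 1.88 ± 0.25 in vehicle, 1.82 ± 0.29 with 10 µM and 1.52 ± 0.68 with 50 µM at 48 h, a difference of -0.36 between 50 µM and vehicle in which Myf6, at 0 counts in 2 libraries, weighs as much as Myog. This difference is smaller than the pooled SD of 0.51 and the groups overlapped (1.61 to 2.25 against 0.50 to 2.27); with a prior count of 0.5 in place of 2 it was -0.66. From summed counts, where Myog outweighs Myf6, the same difference was 0.87, of the opposite sign. Without 1 library at a time the first form ranged from -0.55 to -0.11. At 24 h the 2 forms were -0.47 and 0.36. In vehicle this contrast rose from 0.45 ± 0.33 at 3 h to 1.58 ± 0.30 at 24 h. No p is given for these scores, since the members were chosen with results known.

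**Figure D3:**
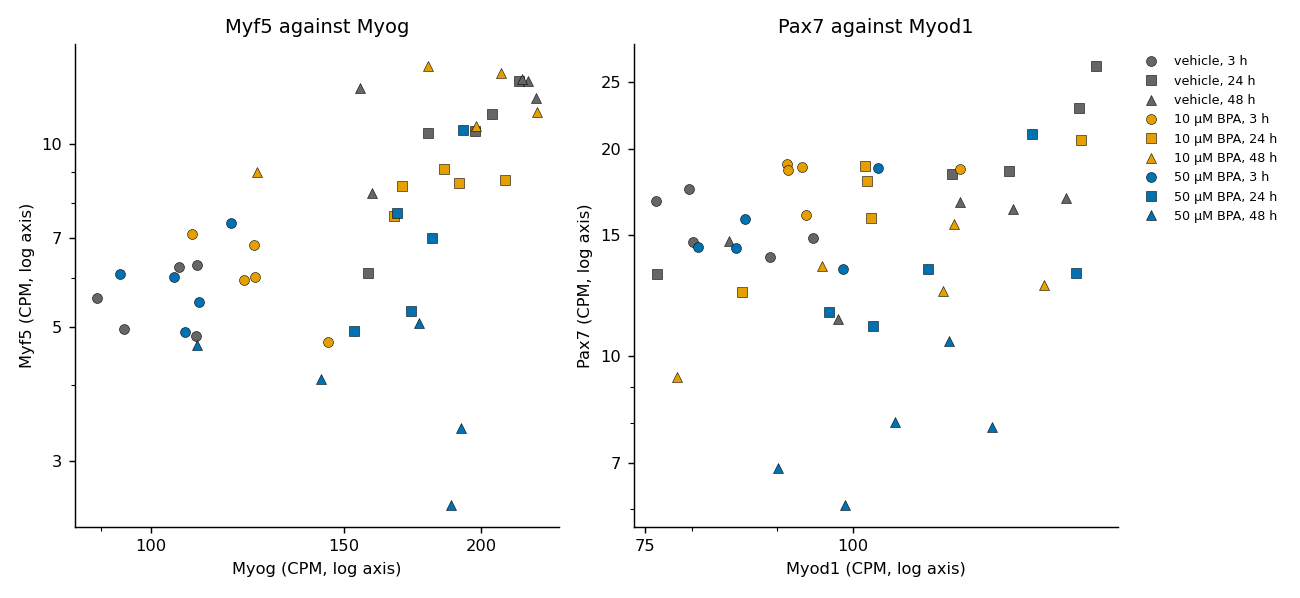
Myf5 against Myog (left) and Pax7 against Myod1 (right) in CPM, both axes on a log scale, 1 symbol per library with colour for dose and shape for time. The 5 libraries of 50 µM at 48 h (blue triangles) have 2.54 to 5.07 CPM of Myf5 at 110.1 to 192 CPM of Myog, with Myf5 below that of every vehicle library of 48 h.

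Set against the contractile genes of the same library, the picture changed again, since those genes fell too. The summed level of the 30 contractile genes at 48 h was 8148 ± 1460.2 CPM in vehicle and 3788 ± 648 CPM with 50 µM BPA. Per 100000 contractile counts, Myod1 had 1438, 1309, 1345, 1377 and 1372 counts in the vehicle libraries of 48 h and 3302, 2677, 2587, 2879 and 2732 with 50 µM. The groups were far apart, with a ratio of means of 2.07, and Myog gave 1.77 (2401 ± 137 against 4248 ± 366), also without overlap. At 24 h the ratios were 1.63 for Myod1 and 1.49 for Myog, again without overlap, and at 3 h they were 1.04 and 1.01. Pax7, Lbx1 and Myf5 had ratios of 1.12, 0.785 and 0.759 at 48 h with overlapping libraries. Fgf6 stayed lower on this scale too, at 0.475 at 24 h without overlap and 0.559 at 48 h with overlap, and Myf6 had 0.453 at 48 h with overlap.

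**Figure D4:**
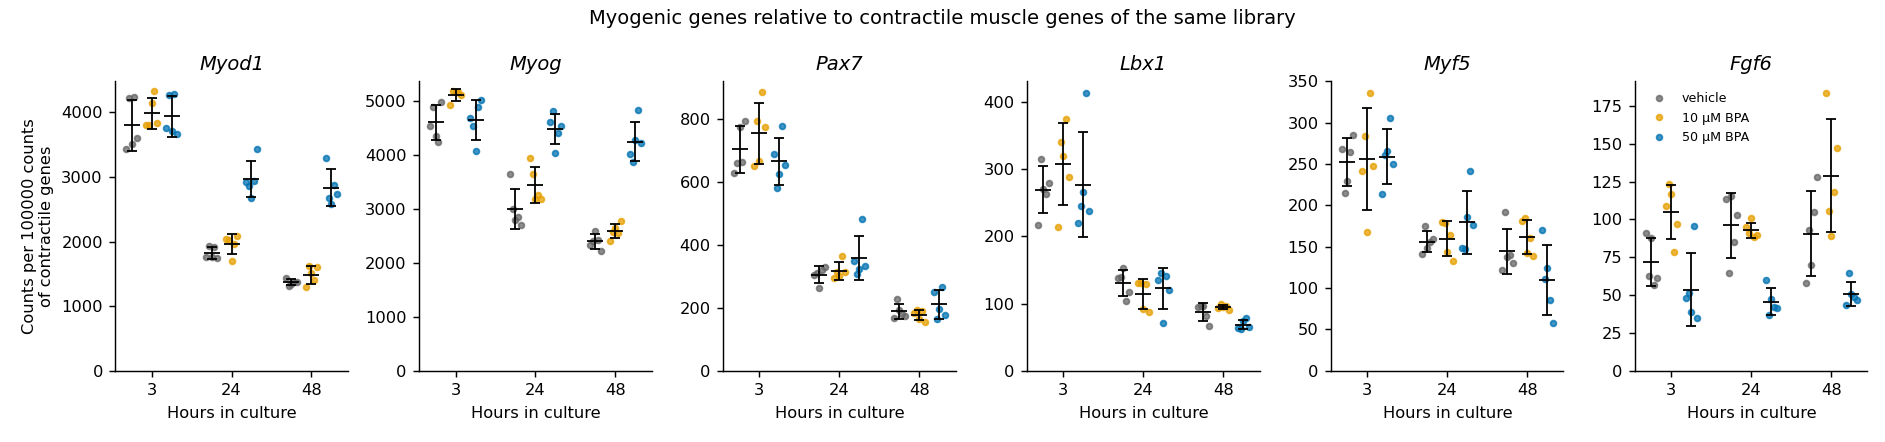
Counts of 6 genes per 100000 counts of the 30 contractile muscle genes of the same library, by hours in culture; points are libraries, bars mean ± SD of 5, and each axis starts at 0. At 24 and 48 h the 50 µM libraries of Myod1 and Myog lie above all vehicle libraries, while those of Pax7, Lbx1 and Myf5 overlap with them.

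Genes on either side of the 8 in the pathway were counted from lists of named pathway members. Downstream, 14 of 19 tested genes of fusion and early differentiation fell with 50 µM at 48 h and 0 rose (median log2 fold change -0.74), as did 25 of 28 contractile genes (median -1.13), and at 24 h 8 of 19 and 19 of 27 fell. Over all genes tested, 5.30% were called lower at 48 h and 2.10% at 24 h, with median log2 fold changes of -0.0049 and -0.0009. Cav3, the caveolin of the muscle membrane, fell 2.54-fold (-1.35 ± 0.12), Klhl40, which stabilises thin filaments, 2.34-fold, Myl4, an embryonic myosin light chain, 2.2-fold, and Smyd1, a methyltransferase of sarcomere assembly, 2.1-fold at 48 h, with adjusted p between 2.19e-05 (Cav3) and 9.79e-05 (Smyd1). At 24 h Rapsn, which clusters acetylcholine receptors, fell 1.47-fold (adjusted p = 0.00719). With 10 µM, 0 genes of either list were called at any time by edgeR.

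Upstream and beside the myogenic factors, changes went both ways. Over all genes, 3.88% were called higher and 5.30% lower at 48 h, and 1.37% higher and 2.10% lower at 24 h. A count of 1 or 2 in a list is therefore not far from the background at 48 h. Of 14 tested factors upstream of myogenesis or of precursor migration, 1 rose and 4 fell at 48 h with 50 µM (median -0.070). Eya2, a co-activator of homeobox factors, was the 1 that rose, from 38.8 ± 4.45 to 66.4 ± 7.32 CPM (0.76 ± 0.09, adjusted p = 6.57e-05), and it had risen by 0.80 ± 0.08 at 24 h. Msc (musculin) fell from 14.2 ± 1.87 to 7.42 ± 0.771 CPM (-0.95 ± 0.12), and Meox2 fell by 0.45 ± 0.08 on the log2 scale. Of 20 partners and inhibitors of the myogenic factors, 5 rose and 2 fell at 48 h. The inhibitors Id2 (0.40 ± 0.07, adjusted p = 0.00178) and Id3 (0.36 ± 0.07, adjusted p = 0.00275), which bind E proteins and so keep them from myogenic factors, rose at 48 h, and at 24 h Id2, Id3 and Id4 were the 3 that rose (0.49 ± 0.06, 0.52 ± 0.12 and 0.40 ± 0.10). Mdfic, of the family of MyoD inhibitors, rose by 0.30 ± 0.06, and Mef2c, a partner of the myogenic factors, fell from 361 ± 67.0 to 234 ± 30.3 CPM (-0.64 ± 0.12, adjusted p = 0.00267). Of 17 surface and signalling genes of myoblasts, 2 rose and 4 fell at 48 h. The laminin receptor subunit Itga7 (-1.15 ± 0.17) and Mstn (myostatin, a brake on muscle growth; -1.07 ± 0.21) fell, and Cdon, a receptor that promotes myogenesis (0.26 ± 0.04), and Fgfr4, a fibroblast growth factor receptor of myoblasts (0.37 ± 0.09), rose. Many of these genes are also expressed outside muscle in a limb bud, so a whole-bud level need not be that of muscle cells.

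Markers of other tissues moved in part beside these genes at 48 h with 50 µM, where 3.88% of all genes were called higher and 5.30% lower. Of 10 macrophage markers 5 fell (summed level 246 to 324 CPM in vehicle, 130.5 to 245.5 CPM with 50 µM), of 10 tendon markers 5 fell (9628 to 12497 against 7249 to 10776 CPM), and of 11 chondrocyte markers 1 rose and 0 fell (16036 to 22009.6 against 19796 to 25680.5 CPM). Of 11 tested Schwann cell and melanoblast markers 1 rose and 2 fell, and of 9 endothelial and 13 epidermal markers 0 were called at 24 or 48 h by edgeR. No marker list was at 0 in any group. Of 20 mitotic genes, 4 fell at 24 h, among them Top2a (-0.28 ± 0.06), where 2.10% of all genes were called lower. At 48 h 1 fell, Ube2c (-0.24 ± 0.06), a share near that of all genes at that time. The part of these tissues in the changes of the 8 genes was not tested, apart from the epidermal markers: with their mean as a covariate, the 5 calls at 48 h and those of Fgf6 and Lbx1 at 24 h were kept, and Myf6 at 24 h was not (adjusted p = 0.0508).

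Over the 45 libraries, each gene's course was most like that of different partners, by Spearman's rho over log2 CPM among 13796 protein-coding genes. Myog was closest to Mymk (myomaker, the fusion protein of myoblasts; rho = 0.94), Chrng (0.94), Mybph (0.93), Rbm24 (0.93) and Fndc5 (0.92), and Fgf6 to Myl6b (0.93), Itgb1bp2 (0.89), Smpx (0.89), Myl1 (0.89) and Mylpf (0.89), of which several encode parts of the contractile apparatus. Myf5 was closest to Adam19 (0.85), Txlnb (0.83), Asb2 (0.83), Klhl31 (0.82) and Mypn (0.82), and Myod1 to Frmpd1 (0.78), Pnmal2 (0.78), Chrng (0.77), Cdh15 (0.77) and Fndc5 (0.77). Among the genes closest to Pax7 were Btbd17 (0.72), Islr2 (0.71), Msc (0.71) and Tubb2b (0.67), and among those closest to Lbx1 were Cited1 (0.70), Kcne1l (0.69), Myh7b (0.67) and Tppp3 (0.66). Pax3 was closest to Plk1 (0.81), Uhrf1 (0.81), Chtf18 (0.80), Mcm5 (0.80) and Kif22 (0.79), genes of mitosis and DNA replication, and Myf6 had Npnt (0.81), B3galt2 (0.81), Gpr83 (0.81), Ecm2 (0.81) and Ky (0.81). These likenesses follow culture time and dose, which all genes of a library share, and are descriptions.

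Among libraries of the same group, Myod1 and Myog went together most closely. With each group's mean removed, rho over the 45 libraries was 0.82 between Myod1 and Myog, 0.67 between Pax7 and Myog, 0.61 between Lbx1 and Myog and 0.52 between Pax7 and Lbx1. Myf5 and Myf6, the neighbours on chromosome 10, had 0.52, a value near those of Lbx1 and Myod1 (0.52) and of Pax7 and Myf5 (0.49). With Myog, Myf5 had 0.15 and Myf6 had -0.02. The mean log2 CPM of the contractile genes went with Myog (0.77), Myod1 (0.69), Pax7 (0.66) and Fgf6 (0.66). Values were lower for Lbx1 (0.44), Myf5 (0.27), Myf6 (0.19) and Pax3 (-0.02). The mean log2 CPM of the epidermal markers ran the other way for Myod1 (-0.59), Pax7 (-0.57) and Myog (-0.51). Counts of Pax3 and Myf6 are low, and their correlations carry that noise.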

How the data were processed

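RNA of 45 limb bud cultures was sequenced as poly-A libraries. The authors' deposited tables, 9 in number and 1 per pairwise comparison, hold whole read counts per gene and FPKM; CASAVA 1.8, STAR 2.5, HTSeq 0.6.1, DESeq2 2 and mm10 are named per the submitters' processing notes, and no label or header states the strand setting. The 466860 counts present in more than 1 table were equal. Genes absent from a table were not filled with 0, since 3221 such gene and library pairs had counts in another table, so each comparison with vehicle used its own table and the other contrasts used the 26202 genes present in all 9.

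Counts were tested with the quasi-likelihood test of edgeR 4.0.16 (R 4.3.3) after TMM scaling and its low-count filter (minimum 10, total 15); p-values were adjusted by Benjamini-Hochberg over all genes tested, and an adjusted p under 0.05 is a call. SE is the absolute log2 fold change over the root of F. CPM was scaled over all 45 libraries, and log2 CPM used a prior count of 2. Deposited FPKM values, normalised by the authors for length and depth, served only for the order of genes. Depth was 17.54 to 27.12 M counts (M for mega), so a gene at 1 CPM rests on some 20 counts, and limits from a count of 0 (3 counts) cover counting error only. Scripts were tested on simulated data.

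Genes outside the 8 were named where they were among the 4 called genes of a list with the smallest p at 24 or 48 h with 50 µM, or the 5 closest protein-coding genes by Spearman's rho among those with a mean count of at least 20. Some genes that meet this rule are not reported here. The members and lists were chosen with earlier results of these data known. Alternatives were DESeq2 1.42.0, other scaling factors, other filters, a replicate block, an epidermal covariate, other sample sets and the omission of each library. Numbers were taken to pair libraries where the deviations of all 5 same-numbered pairs had r over 0.1. This held for 50 µM against vehicle at 48 h (r from 0.104 to 0.211); elsewhere 0 to 4 of 5 pairs passed, although all 5 r were above 0 in several comparisons, 50 µM against vehicle at 3 and 24 h among them. The 50 µM libraries titled 3 h carry a length label of 24 hours, and the treatment text of all 45 samples names a culture of 3 h; the titles were followed. For 10 µM at 48 h, replicates 1 and 2 have swapped codes and titles, so the block was run either way.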

Additional observations from a re-analysis of the deposited data

Results flagged for a closer look

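Of 72 sets of 5 libraries (8 genes in 9 groups), 8 held a library far from the other 4 by Dixon's test, where chance flags about 1 in 20. In the 50 µM group of 3 h, replicate 4 had 9.98 CPM of Lbx1 (nearest library 6.09) and 2.3 CPM of Fgf6 (nearest 1.18). In the 50 µM group of 24 h, replicate 4 had 21.1 CPM of Pax7 (nearest 13.4) and replicate 3 had 0.704 CPM of Myf6 (nearest 0.273). In the 10 µM group of 3 h, replicate 1 had 16.0 CPM of Pax7 (nearest 18.6), replicate 3 had 116 CPM of Myod1 (nearest 93.8) and replicate 5 had 0.556 CPM of Myf6 (nearest 0.158). In the vehicle group of 48 h, replicate 1 had 8.31 CPM of Myf5 (nearest 11.9).

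The effect of 50 µM differed between 48 and 3 h (edgeR, 4 groups of 5 libraries within the fit of all 45) by -1.65 for Myf5 (adjusted p = 6.36e-05), -1.53 for Lbx1 (0.000251), -1.64 for Fgf6 (0.0210) and -0.93 for Pax7 (0.0168) on the log2 scale.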

How the results depend on the processing

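The 5 calls with 50 µM at 48 h kept direction and side of the threshold under every alternative in which the gene was tested. Myf6 was tested in 17 of 18, since it was under the filter of 1 CPM in 5 libraries. In each of the 10 fits without 1 library, 5 members were called. Other counts of members called, without 1 library at a time, ranged from 1 to 2 (50 µM, 24 h, 3 with all libraries), 5 to 8 (vehicle, 24 against 3 h), 0 to 1 (vehicle, 48 against 24 h), 0 to 1 (50 against 10 µM, 3 h), 4 to 5 (the same at 48 h), 0 to 1 (effect at 24 against 3 h), 2 to 4 (effect at 48 against 3 h) and 1 to 3 (50 µM, 24 against 3 h). DESeq2 called 1 member for 50 against 10 µM at 3 h, 2 at 24 h (Fgf6 and Myf6) and 2 for the effect at 24 against 3 h. Upper-quartile factors and no filter each left 1 member called in 50 µM between 24 and 3 h. With the replicate block 1 member was called in vehicle between 48 and 24 h and 1 for the effect at 24 against 3 h, and Pax7 (adjusted p = 0.0231) and Myf5 (0.0441) were called with 50 µM at 24 h while Myf6 was not (0.0539); the block added Myog at 48 h and changed no other call there. In vehicle between 24 and 3 h, no filter ended the calls of Lbx1 (0.0524) and Pax3 (0.0629). The cause of these changes was not tested.

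The difference between differentiation and progenitor genes (mean log2 CPM) turned from -0.27 to 0.0736 with 50 µM at 3 h, from -0.47 to 0.363 at 24 h, from -0.36 to 0.873 at 48 h and from -0.50 to 0.0788 with 10 µM at 3 h when summed counts were used, and moved from 1.13 to 0.484 in vehicle between 24 and 3 h; summing gives Myog nearly all the weight. Without 1 library it ranged from -0.36 to -0.18, -0.56 to -0.38 and -0.55 to -0.11 with 50 µM at 3, 24 and 48 h, and from -0.72 to -0.34, 0.29 to 0.45 and -0.15 to 0.04 with 10 µM. Over all genes, DESeq2 called 594 and the block 324 with 50 µM at 3 h (239 in the main test), 1008 and 1180 at 24 h (585), and the block 2598 at 48 h (1536). With 10 µM the block called 0, 95 and 37 genes (58 by library code at 48 h) against 0, 0 and 1. Pax3 and Myf6 are limited by depth.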
